A study of Mus musculus with 6 samples.

Results

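Glutamate and GABA receptor genes were examined in H3K4me3 ChIP-Seq data from STHdh cells, which are striatal progenitors of mouse origin that were conditionally immortalized. The set holds the 47 protein-coding genes, of 21911 in GENCODE release M21, whose symbols name an AMPA (Gria), NMDA (Grin), kainate (Grik), delta (Grid) or metabotropic (Grm) glutamate receptor, a GABA-A subunit (Gabr) or a GABA-B receptor (Gabbr). Of these, 26 belong to the glutamate receptors and 21 to the GABA receptors. The rule for a gene's membership uses its symbol and no measured value, although the set was chosen with earlier results of these data known.

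Each of the 6 peak lists came from 1 condition, and all cells had been kept for 24 hours without serum. Q7SST was the wild-type STHdhQ7 line with vehicle, and Q111SST was the STHdhQ111 line, homozygous for knocked-in mutant huntingtin, with vehicle. The other 4 lists came from STHdhQ111 cells given 10 uM cyproheptadine, loxapine, meclizine or diacylglycerol kinase inhibitor II (DKI). The labels give the strain of both lines as C57BL/6. The design text of the series gives treatment in triplicate, but the number of replicates behind the ChIP-Seq libraries and whether they were pooled into a list are not given in the sources used here. With 1 line per genotype and 1 list per condition, a difference between lists cannot be told apart from a difference between lines or libraries, and no test between conditions was possible.

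Ionotropic glutamate receptors are cation channels assembled from AMPA, NMDA, kainate or delta subunits, and they carry most fast excitatory transmission in the brain, including the cortical input to the striatum. GABA-A receptors are chloride channels built from alpha, beta, gamma and other subunits, and GABA-B and metabotropic glutamate receptors signal through G proteins. H3K4me3, the trimethylated form of lysine 4 on histone H3, is found at the starts of genes that are active or poised, most often where the DNA is rich in CpG dinucleotides.

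The lists held between 30758 (DKI) and 45564 (loxapine) peaks, each with a whole-number score that was 10 or more in every list. Read totals are unknown, and a list with fewer peaks may come from fewer reads or from weaker enrichment. Here a gene's promoter counts as marked if some peak comes to within 1 kb of one of its annotated starts, and the strength of the mark was the score of the strongest such peak, given also as its percentile among all peaks of the same list. The progenitor label was compared with marker promoters. Vim and Hes1 were marked in all 6 lists, Nes in all but cyproheptadine and Sox2 in the 5 mutant lists. Of 7 neuron markers, Syt1, Tubb3 and Map2 were marked in all 6 lists, Stmn2 in 3, Syp in Q7SST alone, and Rbfox3 and Snap25 in none. Of 6 genes of striatal projection neurons, Foxp1 was marked in all 6 lists, Ppp1r1b in 4, Adora2a and Bcl11b in Q7SST alone, and Drd1 and Drd2 in none.

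The receptor promoters were marked less often than other promoters in every list. In Q7SST, 16 of the 47 genes were marked, beside 59.9% of all protein-coding genes. In Q111SST, 7 were marked, beside 58.4% of coding genes. Cyproheptadine and DKI each had 6 marked receptor genes, where 55.4% and 55.8% of coding genes were marked. Loxapine had 8, beside 58.1%, and meclizine had 7, beside 58.6%. No receptor gene was marked in a mutant list without being marked in Q7SST, while 3.09% of coding genes were. A count of 0 among 47 genes is too small to be set below that share.

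Over the 6 lists, 16 of the receptor genes were marked at least once, beside 63% of coding genes, and 10 in some of the lists only, beside 9.52%. Marks in all 6 lists were found at 6 genes (Grin2d, Grik2, Grm8, Gabrb2, Gabre and Gabbr1), where 53.5% of coding genes had them. This count was 1 with peaks of a score of at least 47, the median of the 6 lists pooled, and 0 when the peak had to cover a start. A further 8 genes were marked in Q7SST and in none of the 5 mutant lists, beside 2.78% of coding genes, and these were the AMPA genes Gria1, Gria2, Gria3 and Gria4, the kainate genes Grik1 and Grik5, and the GABA-A genes Gabra4 and Gabrb1. Grin1 and Grik4 were each marked in 3 lists. The other 31 genes were marked in no list, beside 37% of coding genes. Peaks that marked a receptor gene covered a start or lay at most 395 bp from it, whereas in a list that did not mark a gene the nearest peak was at least 3684 bp away, so no gene was close to the 1 kb limit.

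**Figure D1:**
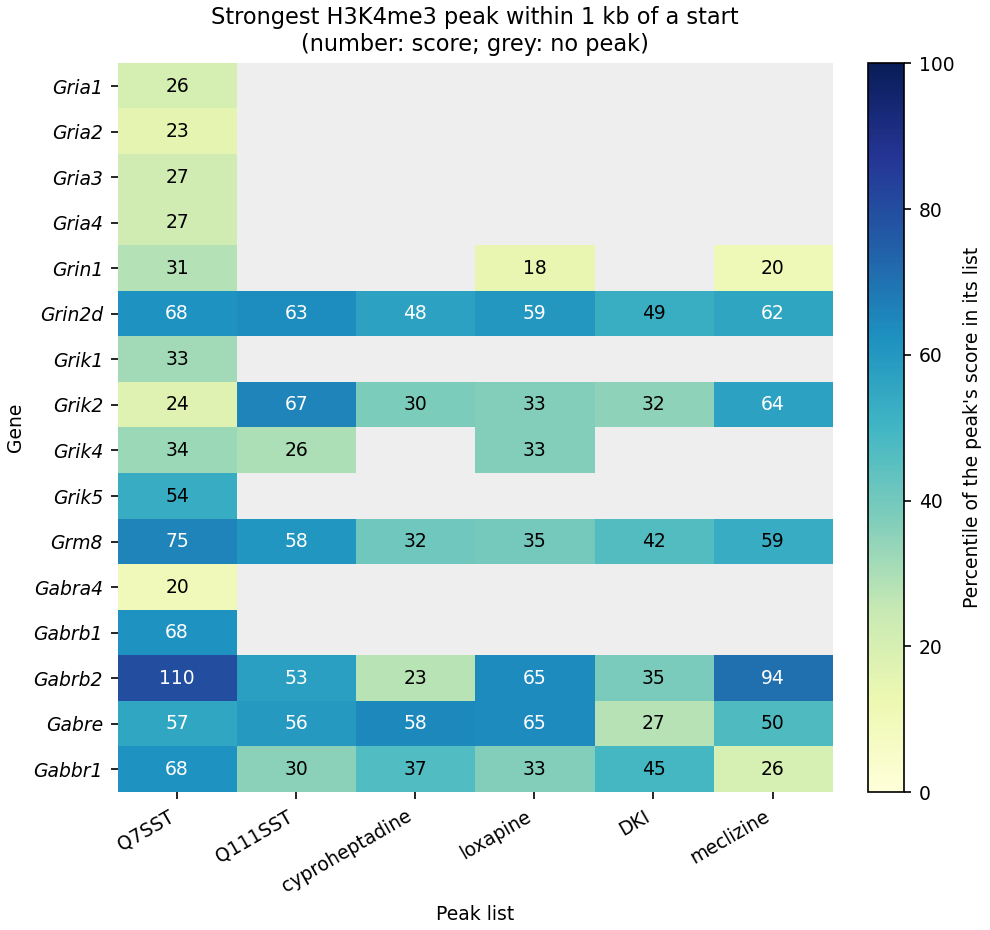
Strongest H3K4me3 peak within 1 kb of a start for the 16 receptor genes marked in at least 1 list (rows) in the 6 peak lists (columns); numbers are scores, color is the percentile of that score among the peaks of its list, and grey means no peak. The 8 genes with a single colored cell in the Q7SST column include all 4 Gria genes, and 6 rows are colored throughout.

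The AMPA receptor genes encode the pore-forming subunits of the channels that open first at excitatory synapses. All 4 were marked in Q7SST and none in any mutant list. Their Q7SST peaks were weak, with a score of 26 for Gria1, 23 for Gria2, 27 for Gria3 and 27 for Gria4, which placed them between the 15.1 and 22.1 percentiles of that list. The Gria1 peak was 326 bp wide (chr11:57011911-57012236 on GRCm38) and covered an annotated start 569 bp inside the gene. The Gria2 peak (chr3:80802039-80802954), which spanned the gene's 5′ end, measured 916 bp. At Gria3 the peak was 1513 bp wide (chrX:41401411-41402923), and at Gria4 it was 1649 bp wide (chr9:4795075-4796723). Each of the 4 peaks covered at least 1 annotated start, with untranslated and coding exon sequence beside it.

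In the 5 mutant lists the nearest peak to a Gria start lay between 25863 bp (Gria2, loxapine) and 416800 bp (Gria4, Q111SST) away. The sequence just upstream of Gria2 and Gria4 is shown because both were marked in 1 line only, with CpG in capitals here and in the other sequences below. The 250 bases before the RefSeq start of Gria2 (GRCm38.p6, chr3:80802836-80803085, minus strand) held 19 CpG, and the Q7SST peak covered 119 of these bases. Those of Gria4 (chr9:4796235-4796484, minus strand) held 16 CpG, and all 250 lay under the Q7SST peak.

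Gria2: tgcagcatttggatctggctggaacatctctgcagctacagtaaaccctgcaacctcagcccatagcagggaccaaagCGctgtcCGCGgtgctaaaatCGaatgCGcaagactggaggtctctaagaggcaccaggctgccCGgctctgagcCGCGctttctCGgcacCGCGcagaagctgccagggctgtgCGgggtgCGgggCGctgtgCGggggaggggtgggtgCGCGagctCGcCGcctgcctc

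Gria4: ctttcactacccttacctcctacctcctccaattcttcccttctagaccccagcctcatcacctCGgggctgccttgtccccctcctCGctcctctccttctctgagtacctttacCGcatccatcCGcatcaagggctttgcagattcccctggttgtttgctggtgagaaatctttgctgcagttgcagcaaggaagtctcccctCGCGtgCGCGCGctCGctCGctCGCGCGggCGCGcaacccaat

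**Figure D2:**
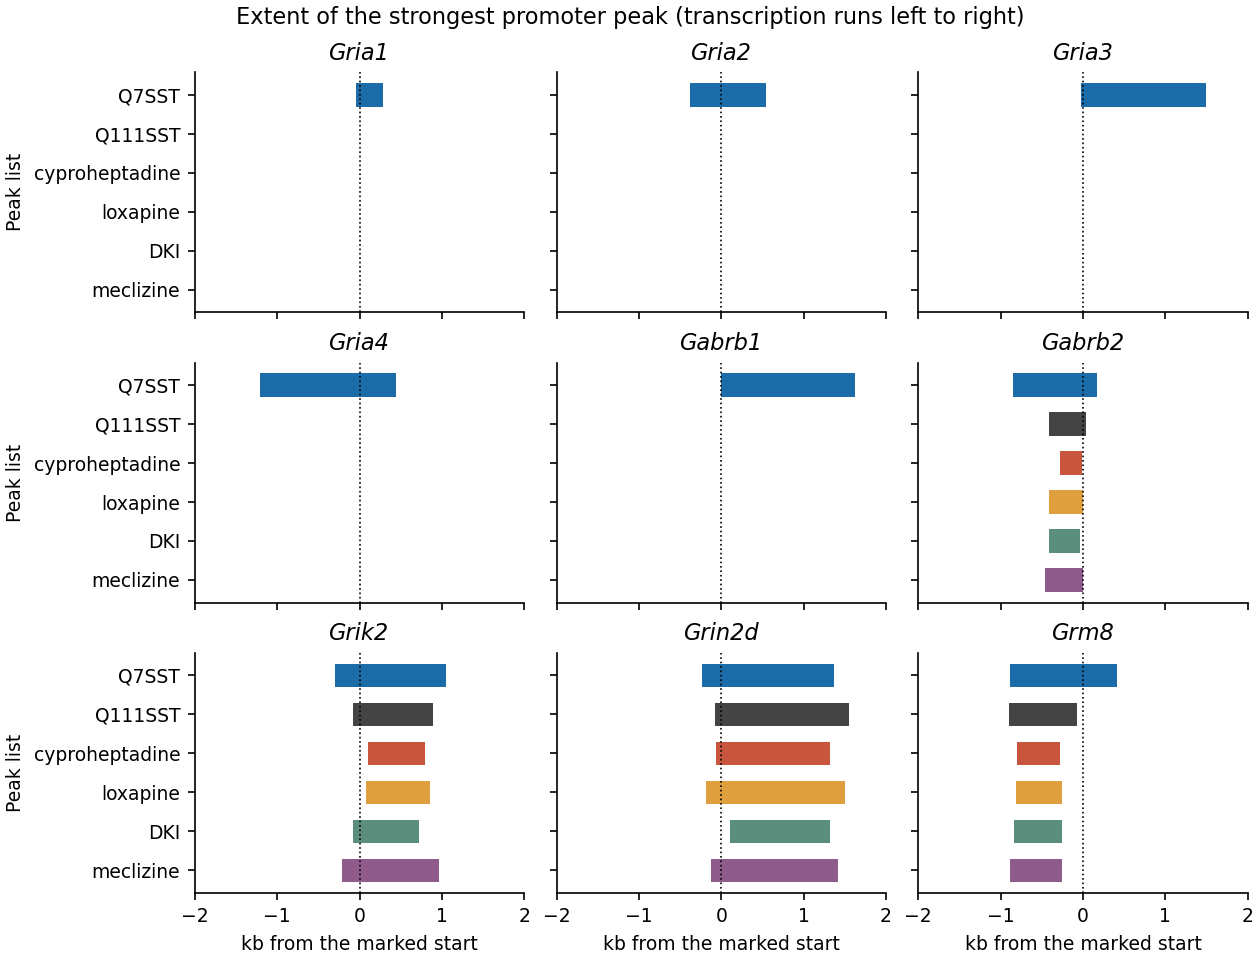
Extent of the strongest promoter peak of 9 receptor genes in the 6 lists, in kb from the start that most of the gene's peaks mark (dotted line), with transcription running from left to right. The 4 Gria genes and Gabrb1 have a bar in Q7SST only, while Gabrb2, Grik2, Grin2d and Grm8 have a bar at about the same place in all 6 lists.

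NMDA receptors need the subunit encoded by Grin1, together with Grin2 or Grin3 subunits that set their kinetics. Grin2d was marked in every list, at the start of a protein-coding transcript 11.2 kb inside the gene. Its scores were 68 in Q7SST, 63 in Q111SST, 62 with meclizine, 59 with loxapine, 49 with DKI and 48 with cyproheptadine. The percentile of the peak ranged from 52.6 (DKI) to 63.6 (Q111SST), the narrowest range among the 6 genes marked throughout. No list had a peak within 1 kb of the 5′-most Grin2d start.

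Grin1 had a peak with a score of 31 in Q7SST, 18 with loxapine and 20 with meclizine, and none within 1 kb of a start in Q111SST, cyproheptadine or DKI. These peaks lay near or over starts 13790 bp and 14087 bp inside the gene, which belong to processed transcripts within the coding part. The 5 starts at the 5′ end of Grin1 were unmarked in all 6 lists. With starts of protein-coding transcripts alone, Grin1 was marked in no list. The other NMDA genes, Grin2a, Grin2b, Grin2c, Grin3a and Grin3b, were unmarked throughout.

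Of the 5 kainate receptor genes, 4 were marked in Q7SST, 2 in Q111SST and with loxapine, and 1 with each of the other compounds. Grik2 and its relatives Grik1 and Grik3 encode subunits that form channels on their own, while Grik4 and Grik5 encode high-affinity subunits that need a partner. Grik2 was marked in all 6 lists, with a score of 24 in Q7SST, 67 in Q111SST, 64 with meclizine, 33 with loxapine, 32 with DKI and 30 with cyproheptadine. Among the 6 genes with a mark in every list it was the weakest in Q7SST, at percentile 16.9, and the strongest of them in Q111SST, at percentile 65.6. The marked start lay 5507 bp inside the gene and is shared by 3 protein-coding transcripts. The peak covered it in 4 lists and lay 107 bp past it with cyproheptadine and 76 bp past it with loxapine.

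Grik2 also differed between lists at its 5′ end. The starts there had a peak in Q111SST (score 25), loxapine (15) and meclizine (29), and none in Q7SST, cyproheptadine or DKI. The 250 bases before the RefSeq start of Grik2 (chr10:49788755-49789004, minus strand) are shown as those of a gene with a low median score among the genes marked throughout. They held 20 CpG, and all of them were under the peak in those 3 lists.

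Grik2: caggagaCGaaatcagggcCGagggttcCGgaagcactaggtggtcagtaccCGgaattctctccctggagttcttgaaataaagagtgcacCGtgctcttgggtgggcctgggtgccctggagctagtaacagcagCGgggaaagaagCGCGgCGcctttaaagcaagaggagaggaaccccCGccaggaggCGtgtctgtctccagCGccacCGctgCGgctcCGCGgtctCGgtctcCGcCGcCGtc

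Grik4 was marked in Q7SST (score 34), Q111SST (26) and loxapine (33), and had no promoter peak with cyproheptadine, DKI or meclizine. Its peak narrowed from 922 bp in Q7SST to 400 bp in Q111SST and 202 bp with loxapine, where it lay 177 bp upstream of the start. Grik1 and Grik5 were marked in Q7SST alone. The Grik1 peak (score 33) was 277 bp wide and 133 bp upstream of the gene. The Grik5 peak (score 54) lay in an intron, 169 bp from a Grik5 start and also within 1 kb of a start of the neighboring gene Zfp574, which had its own, stronger promoter peak in every list (scores of 58 to 106).

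Grik3 was unmarked in all 6 lists, although the 250 bases before its RefSeq start (chr4:125490446-125490695, plus strand) held 42 CpG. They are shown, chosen after the values were seen, as a CpG-dense receptor promoter with no peak.

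Grik3: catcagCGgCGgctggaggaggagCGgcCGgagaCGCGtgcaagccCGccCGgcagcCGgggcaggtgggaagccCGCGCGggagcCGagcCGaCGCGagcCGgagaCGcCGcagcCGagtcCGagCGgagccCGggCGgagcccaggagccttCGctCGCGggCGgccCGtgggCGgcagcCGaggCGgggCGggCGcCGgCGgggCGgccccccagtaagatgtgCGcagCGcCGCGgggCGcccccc

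Among the metabotropic glutamate receptor genes, Grm8 was marked in every list. Grm8, a group III receptor that inhibits release from nerve terminals, had a score of 75 in Q7SST, 58 in Q111SST, 59 with meclizine, 42 with DKI, 35 with loxapine and 32 with cyproheptadine. Q7SST was the strongest of these lists also by percentile, at 65.5, and loxapine the weakest, at 39.5. Only in Q7SST did the peak reach over the start; in Q111SST it ended 72 bp upstream and with the 4 compounds 250 to 277 bp upstream. The delta receptor gene Grid1, the group I gene Grm5, the group II genes Grm2 and Grm3 and the group III genes Grm4, Grm6 and Grm7 were unmarked.

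The sequence before the RefSeq start of Grm8 (chr6:28135147-28135396, minus strand) is shown as that of a gene with a high median score among the genes marked throughout. All 250 bases were under the Q7SST peak, 147 under the Q111SST peak and none under a peak in the compound lists. It held 29 CpG.

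Grm8: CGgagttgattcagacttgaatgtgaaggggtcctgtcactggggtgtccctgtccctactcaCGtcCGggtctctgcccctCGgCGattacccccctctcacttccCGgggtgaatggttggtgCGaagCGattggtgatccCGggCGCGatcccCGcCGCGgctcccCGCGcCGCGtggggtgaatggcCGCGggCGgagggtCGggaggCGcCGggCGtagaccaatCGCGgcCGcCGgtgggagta

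Among the 19 GABA-A genes, 4 were marked in Q7SST and 2 in each mutant list. Gabrb2 and Gabre had a mark in every list. Gabrb2, which encodes a beta subunit that lines part of the GABA binding site, had a score of 110 in Q7SST, 53 in Q111SST, 94 with meclizine, 65 with loxapine, 35 with DKI and 23 with cyproheptadine. Its percentile ran from 27.4 with cyproheptadine to 79.4 in Q7SST, the widest range of the 6 genes marked throughout, and the Q7SST score was the highest of any receptor promoter in any list. The peaks overlapped in all 6 lists, but their width was 1022 bp in Q7SST and 272 to 457 bp in the mutant lists.

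The Gabrb2 promoter is shown for its high median score. The 250 bases before its RefSeq start (chr11:42420951-42421200, plus strand) held 4 CpG and were 36.8% G and C. A peak of every list lay over them.

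Gabrb2: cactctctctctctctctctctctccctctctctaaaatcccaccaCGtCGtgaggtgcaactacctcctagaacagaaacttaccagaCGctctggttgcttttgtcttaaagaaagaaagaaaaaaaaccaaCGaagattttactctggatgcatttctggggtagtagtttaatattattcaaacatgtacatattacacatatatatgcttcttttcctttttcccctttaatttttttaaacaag

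Gabre, encoding the epsilon subunit, had a score of 57 in Q7SST, 56 in Q111SST, 65 with loxapine, 58 with cyproheptadine, 50 with meclizine and 27 with DKI. DKI stood lowest, at percentile 28.1, where the other 5 lists lay between 47.1 and 64.5. With cyproheptadine and loxapine the peak lay in an intron, 395 bp and 238 bp past the start, while in the other 4 lists it covered the start.

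Gabra4 and Gabrb1, which encode an alpha and a beta subunit, were marked in Q7SST alone. They are neighbors on chromosome 5, transcribed in opposite directions from starts that lie 132 bp apart, and a single weak Q7SST peak (score 20, percentile 9.6) sat between and over these starts. Gabrb1 had a second, stronger Q7SST peak (score 68, percentile 61.9, chr5:71699928-71701549) at the start of a protein-coding transcript 41.8 kb further in. In the mutant lists the nearest peak to a Gabrb1 start was 343466 bp to 455774 bp away.

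Gabrb1 is shown as the strongest of the promoters marked in Q7SST and not in Q111SST. The 250 bases before the RefSeq start (chr5:71699682-71699931, plus strand) held 6 CpG, and the peak began 4 bases before the start and ran into the gene.

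Gabrb1: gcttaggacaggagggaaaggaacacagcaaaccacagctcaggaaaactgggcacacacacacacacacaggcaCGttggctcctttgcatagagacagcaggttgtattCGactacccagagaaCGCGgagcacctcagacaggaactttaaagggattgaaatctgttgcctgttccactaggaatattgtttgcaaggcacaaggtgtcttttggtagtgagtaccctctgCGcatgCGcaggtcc

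GABA-A genes unmarked in every list included the alpha genes Gabra2, Gabra3, Gabra5 and Gabra6, the gamma genes Gabrg1 and Gabrg3, the genes Gabrd, Gabrp and Gabrq, and the rho genes Gabrr1, Gabrr2 and Gabrr3. Gabra3 (chrX:72656920-72657169, minus strand) and Gabra6 (chr11:42321073-42321322, minus strand) are shown as the unmarked promoters with the fewest CpG in the 250 bases before the RefSeq start, 0 and 2.

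Gabra3: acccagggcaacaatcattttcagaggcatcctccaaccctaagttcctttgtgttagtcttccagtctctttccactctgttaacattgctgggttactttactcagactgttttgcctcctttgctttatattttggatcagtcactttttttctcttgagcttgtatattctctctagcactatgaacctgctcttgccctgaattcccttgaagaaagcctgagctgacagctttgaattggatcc

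Gabra6: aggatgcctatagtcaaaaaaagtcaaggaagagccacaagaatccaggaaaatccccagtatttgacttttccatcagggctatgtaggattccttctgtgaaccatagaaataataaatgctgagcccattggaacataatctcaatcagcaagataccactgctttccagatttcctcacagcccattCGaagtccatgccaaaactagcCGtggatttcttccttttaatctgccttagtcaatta

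GABA-B receptors are dimers of the products of Gabbr1, which binds GABA, and Gabbr2, which couples to the G protein. Gabbr1 was marked in all 6 lists and Gabbr2 in none, with its nearest peak 22762 bp to 37908 bp away. The Gabbr1 score was 68 in Q7SST, 30 in Q111SST, 45 with DKI, 37 with cyproheptadine, 33 with loxapine and 26 with meclizine. The Q7SST value came from a start 4.7 kb inside the gene that no mutant list marked. At the 5′ start the Q7SST score was 46, close to the 45 of DKI.

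The 250 bases before the Gabbr1 start (chr17:37045716-37045965, plus strand) are shown as those of a promoter marked weakly but in every list. They held 16 CpG and lay at least in part under a peak in 5 lists. With cyproheptadine the peak stopped short of them.

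Gabbr1: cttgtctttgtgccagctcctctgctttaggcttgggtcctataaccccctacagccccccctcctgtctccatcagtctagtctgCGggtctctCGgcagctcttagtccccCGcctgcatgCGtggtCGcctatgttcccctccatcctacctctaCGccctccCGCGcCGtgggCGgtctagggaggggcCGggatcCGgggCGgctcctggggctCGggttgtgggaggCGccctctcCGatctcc

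The paper compared compound-treated cells with the mutant vehicle control. Here each of the other 5 lists was set against Q111SST, so the 5 comparisons share that list. Between Q7SST and Q111SST, 9 receptor genes were marked in Q7SST and not in Q111SST (the 8 above and Grin1), or 19.1% of 47, beside 3.6% of all coding genes. In the other direction there was none, beside 2.08%, but 1 gene when lists were of equal size or when peaks below a score of 47 were left out. No receptor gene was marked in all 5 mutant lists but not in Q7SST, beside 0.936% of coding genes. Such counts of 0 are too small to be set below the shares for all genes. Of the genes unmarked in Q111SST, 9 of 40 receptor genes (22.5%) and 788 of 9121 coding genes (8.64%) were marked in Q7SST. The median score of these marks in Q7SST was 27 for the receptor genes and 34 for the 788 coding genes. The peak covered a start at 7 of the 9 and at 494 of the 788.

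These differences rest mostly on weak peaks. When peaks below a score of 47 were left out, 3 receptor genes were marked in Q7SST and not in Q111SST (6.38%, beside 3.55% of coding genes), and none of them was a Gria gene.

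With the compounds, few receptor promoters differed from Q111SST. Cyproheptadine and DKI marked no receptor gene that Q111SST did not, beside 0.306% and 0.269% of coding genes, and both lacked Grik4, where 3.33% and 2.88% of coding genes were lost. Loxapine marked Grin1 in addition, beside 1.01%, and lacked none, beside 1.24%. Meclizine also marked Grin1, beside 1.02%, and lacked Grik4, beside 0.799%. One gene is 2.13% of the 47, so these counts are too small to be set above or below the shares for all genes.

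**Figure D3:**
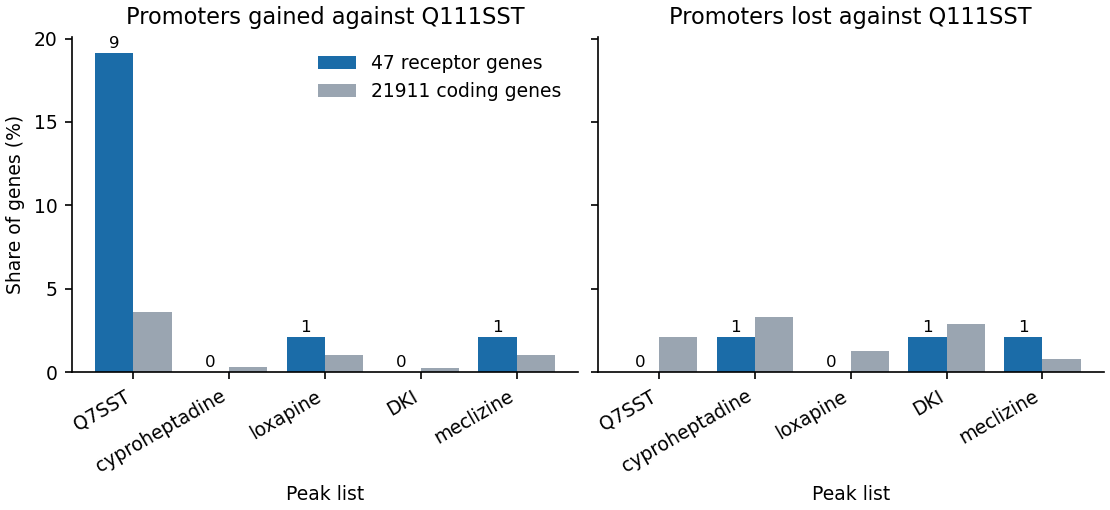
Share of the 47 receptor genes (blue) and of all 21911 coding genes (grey) whose promoter was marked in a list and not in Q111SST (left, gained) or in Q111SST and not in the list (right, lost); numbers above the blue bars are receptor genes. Q7SST gained 9, and every other blue bar is 0 or 1 gene.

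Receptor promoters that were marked were marked weakly. In Q7SST the 16 marked genes had a median percentile of 31.9, beside 80.4 for the 13123 marked coding genes. In Q111SST the values were 59.6 for 7 receptor genes and 82.6 for 12790 coding genes. With cyproheptadine, loxapine, DKI and meclizine the receptor medians were 43.6, 38.3, 42.3 and 53.5, beside 79.5, 83, 76.3 and 80.3. Each marked receptor gene lay below the coding median in each list that marked it. The peaks were narrower as well, with a median of 1010.5 bp in Q7SST and 971 bp in Q111SST, beside 1709 bp and 1795 bp for marked coding promoters.

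The CpG content of the receptor promoters was compared with that of all coding genes, and its part in the marks was not tested. Promoters were taken from the reference genome as the 250 bases before and 50 after each annotated start, and a gene was called CpG-rich when a start had at least 50% G and C and at least 0.6 of the CpG that its base composition predicts. By this measure 29 of the 47 receptor genes were CpG-rich (61.7%), beside 54.5% of coding genes. A gene's number of CpG was that of 1 start, the one with the most CpG, with CpG-rich starts taken first. That start need not be the marked one. The median number was 22 over the 47 receptor genes, beside 18. In Q111SST, 5 of the 29 CpG-rich receptor genes were marked (17.2%), beside 87.9% of 11946 CpG-rich coding genes. In Q7SST, 12 of the 29 were marked (41.4%), beside 90.4%. Among genes that were not CpG-rich, 4 of 18 receptor genes (22.2%) and 23.3% of coding genes were marked in Q7SST. In each of the 5 mutant lists 2 of these 18 were marked (11.1%), beside 19.9% to 23.1% of coding genes.

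Marked and unmarked receptor genes overlapped in CpG content, counted at that 1 start of each gene. At Gabrb1 this start held 33 CpG, while the 250 bases printed for its strongest marked start held 6. The 31 unmarked genes held 2 to 50 CpG with a median of 22, and 17 of them were CpG-rich. The 6 genes marked in all lists held 10 to 30 with a median of 25.5, and the 8 marked in Q7SST alone held 8 to 36 with a median of 19.5. Grik3 (50 CpG), Grid1 (49) and Gabbr2 (45) had the most CpG of the unmarked genes, whereas Gabrb2 (10) and Grin2d (11) were marked throughout.

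The sequences printed above were searched on both strands for the motif GGGCGG, which Sp-family factors bind, and for the core promoter element TATAAA. The first was found once in Grm8, 2 times in Gabbr1 and 6 times in Grik3, and in none of the other 7 sequences, while 44.1% of 20150 coding promoters of this length held it. The second was found in Gabra3 alone, and 11.2% of coding promoters held it. A match is only a string of letters, and Grik3 with the most GGGCGG had no peak.

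**Figure D4:**
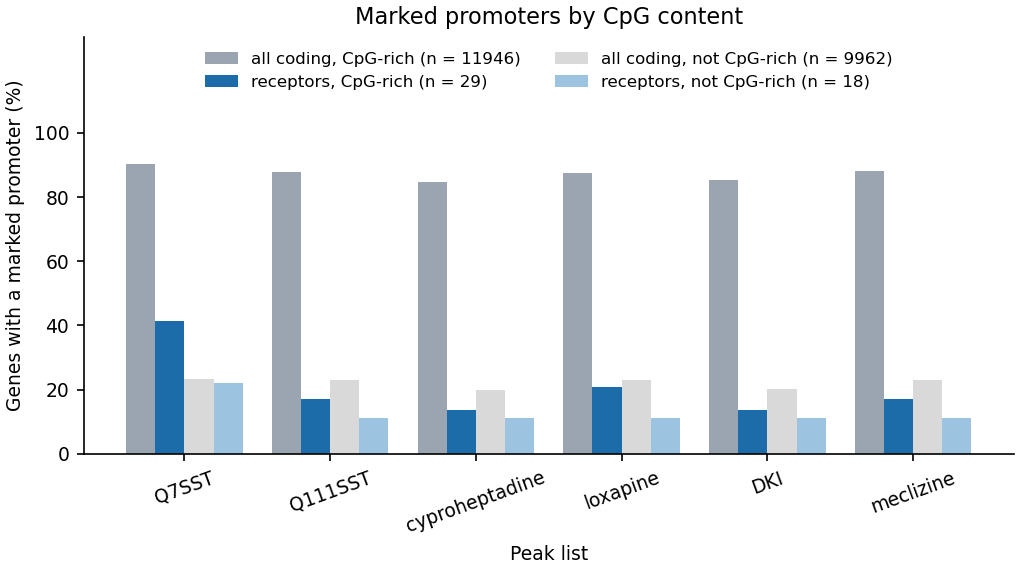
Share of genes with a marked promoter in each list, for CpG-rich (dark) and other (pale) promoters, in all coding genes (grey) and the 47 receptor genes (blue). CpG-rich coding genes stand between 84.9% and 90.4%, while CpG-rich receptor genes stand between 13.8% and 41.4%, highest in Q7SST.

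H3K4me3 peaks inside the receptor genes, more than 1 kb from their own starts, were counted separately. Merged over the lists they gave 65 regions in 19 genes, nearly all intronic. In Q7SST, 15 of the 47 genes held such a peak (31.9%), beside 24.2% of coding genes, and in the mutant lists the shares ran from 19.1% beside 20.5% with DKI to 34.0% beside 28.1% with loxapine. All 6 lists held 7 of the regions (10.8%), beside 21.8% of 24350 such regions in coding genes, and 11 (16.9%) in Q7SST alone, beside 14.3%. Another 5 (7.69%) were found in all 5 mutant lists and not in Q7SST, beside 7.3%, a share near that of all genes. By gene, 3 of 47 held such a region (6.38%), beside 6.07%.

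All 5 of the regions found in every mutant list and not in Q7SST lay in introns of kainate receptor genes, 3 in Grik2 and 1 each in Grik1 and Grik4. The Grik1 region (chr16:88042153-88043035) had a score of 66 in Q111SST, 95 in the loxapine list, 59 with meclizine, 28 with DKI and 50 with cyproheptadine. The Grik4 region (chr9:42730378-42731331), 213.6 kb inside the gene, had scores of 30, 103, 25, 17 and 72 in the same lists. For the strongest of the 3 Grik2 regions (chr10:49191193-49192583) they were 68, 71, 84, 47 and 26, and it lies within 1 kb of the start of Gm47017, an unconfirmed transcript. These genes were singled out after their values were seen, and 94 coding genes had 3 or more such regions.

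More than 1 kb from its starts, Grik2 held no peak in Q7SST but 5 in Q111SST, 7 with cyproheptadine, 6 with loxapine or meclizine and 4 with DKI. Its promoter score was also lowest in Q7SST, at 24, beside 30 to 33 with cyproheptadine, loxapine and DKI and 64 to 67 with meclizine and in Q111SST. Grm7, whose promoter was unmarked, held 5 intragenic peaks in Q7SST or with cyproheptadine, 8 in Q111SST, 9 with loxapine, 6 with meclizine and 2 with DKI, and 2 of its regions were found in all 6 lists. Gria1 held 4 in Q7SST, 3 with loxapine and 1 in each of the other lists, and its strongest intronic peak, with a score of 84 in Q7SST (chr11:57194442-57195200), was found in that list alone.

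Other regions were shared by all lists. Gabra3, unmarked at its promoter, had an intronic region 23.5 kb from its 5′ end (chrX:72632762-72633984) with scores of 31, 44, 35, 61, 33 and 25 from Q7SST to meclizine. A Grin2d region with scores of 62 to 119 lay within 1 kb of a start of the neighboring gene Kdelr1.

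**Figure D5:**
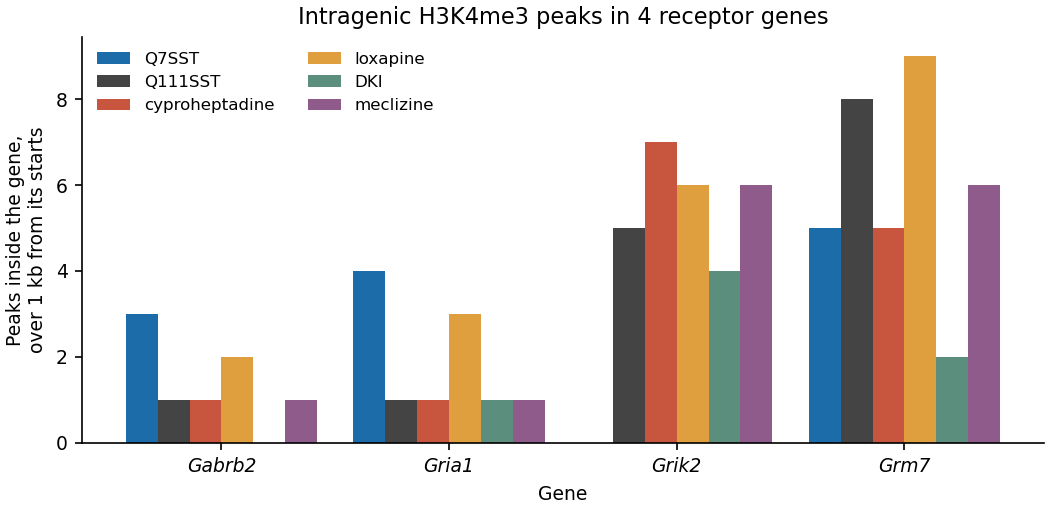
Number of H3K4me3 peaks inside each gene and more than 1 kb from its own starts, for 4 receptor genes with 3 or more in at least 1 list, colored by list. Grik2 has no bar in Q7SST and 4 to 7 peaks in the mutant lists, and Grm7 ranges from 2 with DKI to 9 with loxapine.

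The other glutamate genes were marked in equal numbers in Q7SST and Q111SST, where 59.9% and 58.4% of all coding genes were marked. With the compounds, 55.4% to 58.6% of coding genes were. Of 10 genes that load, take up or make glutamate or turn it into glutamine, 8 were marked in Q7SST, Q111SST and meclizine, 9 with loxapine, 7 with cyproheptadine and 6 with DKI. Slc1a3, a glial glutamate transporter, had scores of 62 to 164, and Slc17a8, a vesicular glutamate transporter, 41 to 74. Of 25 scaffold and auxiliary proteins of glutamate receptors, 14 were marked in Q7SST, 14 in Q111SST and 13 to 15 with the compounds. Dlg4, which encodes the postsynaptic scaffold PSD-95, had scores of 73 to 218 and was marked in all 6 lists. Among AMPA receptor auxiliary genes, Cnih3 was marked in all 6 lists (scores 16 to 50) and Cacng7 in Q7SST, Q111SST, loxapine and meclizine (14 to 64), while Cnih2, Cacng2, Cacng3, Cacng4, Cacng5 and Cacng8 were unmarked throughout. Shank1, a postsynaptic scaffold gene, was marked in Q7SST alone (score 23), and the AMPA receptor scaffold gene Grip1 in the 5 mutant lists alone (scores 45 to 115).

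Of 9 other genes, for making, loading, taking up or breaking down GABA, 2 were marked in each list but loxapine, which had 3. Between 55.4% and 59.9% of coding genes were marked in a list. Gad2 and Slc32a1, needed to make GABA and to load it into vesicles, were unmarked, and Gad1 was marked with loxapine alone at a score of 10, the lowest in any list. Abat, the GABA-degrading transaminase gene, was marked in Q7SST alone (score 58), and the transporter gene Slc6a12 in the 5 mutant lists alone (scores 23 to 55). Of 12 genes for GABA receptor scaffolds and auxiliary proteins, 10 were marked in Q7SST and 8 in every mutant list, the additional genes being Kctd16 (score 26) and Lhfpl4 (43). Both scores are below 47, and 2.78% of coding genes were marked in Q7SST alone. Of the 5 glycine receptor genes, Glrb was marked in all 6 lists and the others in none.

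Marker promoters were counted beside the receptor genes, and their part in the receptor differences was not tested. Of the 7 neuron markers, 5 were marked in Q7SST, 4 in Q111SST and 3 to 4 with the compounds, and within 5 kb the count was 5 in both Q7SST and Q111SST. Of 6 markers of striatal projection neurons, 4 were marked in Q7SST, 2 in Q111SST and 1 to 2 with the compounds, where 59.9% and 58.4% of coding genes were marked in Q7SST and Q111SST. The scores of the markers found in Q7SST alone were 72 for Syp, 31 for Adora2a and 56 for Bcl11b. Of 7 progenitor markers, 6 were marked in Q7SST and 5 in Q111SST, with Sox2 in the mutant lists alone. Astrocyte markers numbered 2 of 4 in Q7SST and 3 in Q111SST, and mesenchymal markers 3 of 5 and 4. The Gfap promoter was marked in the mutant lists alone (scores 30 to 49), as was that of Col1a2 (45 to 77). These differences depended on the settings, since with starts of protein-coding transcripts 1 astrocyte marker was marked in every list, and within 5 kb all 5 mesenchymal markers were. Oligodendrocyte markers were unmarked except for 1 of 4 with meclizine, and at most 1 of 3 microglia markers was marked in a list.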

How the data were processed

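H3K4me3 ChIP-Seq on micrococcal nuclease-digested chromatin was deposited as 6 peak lists, 1 per condition. According to the submitters' processing notes, reads were handled with Trimmomatic 0.36, Bowtie2, SAMtools 1.3 and MACS2 on build mm10. Settings, input control, pooling and the scale of the peak score, the authors' own, are not given in the sources used here. Peaks fit GRCm38 chromosomes, with 0 of 21 exceeded.

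Groups came from the labels. Starts were those of every transcript in GENCODE M21. The steps were checked on simulated peaks. Every gene meeting the symbol rule was counted, and marked genes carry their scores. Values of some single genes are not reported here. Promoters from RefSeq (250 bases, 32 of 47 genes matched, 24 with at most 30 bases of UTR) were printed, among those 24, for the 2 highest and 2 lowest median scores of genes marked in all 6 lists, the strongest gene differing between Q7SST and Q111SST, and 2 unmarked genes with the fewest CpG. Gria2, Gria4 and Grik3 were added after their values were seen. The genes and lists were chosen with earlier results of these data known. Alternatives covered score, list size, window, overlap and starts. Python 3.11.15, pandas 2.3.3, numpy 2.4.6 and pysam 0.24.0 were used.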

Additional observations from a re-analysis of the deposited data

How the results depend on the processing

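There were 1 list per condition and no replicate spread, so counts were recomputed under other settings, and a count is called moved when it changed by over 1.5 times. No paired analysis was possible because every condition is represented by a single list. With peaks at or above a score of 47 alone, marked receptor genes numbered 7 in Q7SST, 5 in Q111SST and 5 with meclizine. They numbered 2 with cyproheptadine, 3 with loxapine and 1 with DKI, and 1 gene was marked in all lists. In that setting Q7SST gained 3 and lost 1 against Q111SST, cyproheptadine lost 3, loxapine gained 0 and lost 2, DKI lost 4 and meclizine gained 0 and lost 0, and the 3 genes marked in Q7SST alone were Gabbr1, Gabrb1 and Grik5. With the strongest 30758 peaks of each list, Q7SST lost 1 (Grik2), loxapine gained 0 and meclizine gained 0. In that setting Gria2, Gabra4 and Grik2 were no longer marked in Q7SST, which marked 13 receptor genes, and 5 genes were marked in all lists. When a peak had to cover a start, cyproheptadine marked 1, loxapine 4 and DKI 2, no gene (0) was marked in all lists, and the genes lost were 5 with cyproheptadine, 4 with DKI, 2 with loxapine and 2 with meclizine, with 0 gained with loxapine. Within 5 kb, cyproheptadine gained 1 and lost 2, DKI lost 2, and loxapine and meclizine gained 0, with Grik5 marked in every list. In Q111SST, loxapine, DKI and meclizine the nearest peak to Grik5 was the promoter peak of its neighbor Zfp574. With starts of protein-coding transcripts, and with those of the basic annotation (chosen after seeing the data), loxapine and meclizine gained 0, since Grin1 is marked at a non-coding transcript. Requiring at least 50% of a peak within 1 kb moved none of these counts. The Gria genes were marked in Q7SST and in no mutant list under every setting but the score of 47 and, for Gria2, equal list sizes. Of these recomputed counts for the receptor genes, 105 stayed within 1.5 times and 35 did not. For single genes and for the pathway, marker and channel lists, 828 stayed and 131 did not. Other causes were not tested.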

Other observations

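Other ion channel genes, grouped by symbol after the receptor values had been seen, were counted in the same way. Of 94 potassium channel (Kcn) genes, which set the resting potential and repolarize cells, 35 were marked in Q7SST, 26 in Q111SST, 24 with loxapine, 25 with meclizine, 18 with DKI and 15 with cyproheptadine. Among them 11 (11.7%) were marked in Q7SST and in no mutant list, beside 2.78% of all coding genes. Genes for the alpha and beta subunits of voltage-gated sodium channels (Scn), which carry the rising phase of action potentials, were marked in 3 of 14 cases in Q7SST and in 4 to 5 in the mutant lists, and none was marked in Q7SST alone. Voltage-gated calcium channel genes were marked in 5 of 10 cases in Q7SST and in 4 in every mutant list. None of these differences was tested, since each condition is represented by a single list.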
